A study of Mus musculus with 5 samples.

Results

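Genes that act when mouse germ cells leave mitosis and enter meiosis were followed through the ChIP-seq peak lists of ZFP541, a chromatin-bound zinc finger protein made in the male germ line. They are Stra8, Bhmg1 (also known as Meiosin), Ythdc2, Meioc, Rbm46 and Dazl, 6 of 21779 protein-coding genes placed on the mm10 build. The genes were picked by name. Every peak that overlapped one of them, or the 10 kb on either side of its gene body, was taken from the deposited lists, which gave 0 of 256 peaks in the knockout library, 7 of 8236 in wild-type replicate 1 and 9 of 10371 in wild-type replicate 2.

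Chromatin came from pachytene and diplotene spermatocytes of adult C57BL/6 testes, enriched by STA-PUT, which separates germ cells by sedimentation. Cross-linking in 1% formaldehyde lasted 10 min, and chromatin was precipitated with a rabbit antibody against residues 1 to 300 of ZFP541. The labels give 1 such library from Zfp541-/- cells (KO) and 2 from wild-type (WT) cells, all with the same antibody and strain, and 2 WT input libraries that were not analysed here. They do not describe the knockout allele or whether cells of several animals were pooled, and they do not say whether the WT replicates came from separate animals. Peak lists carry no expression values, so the labelled cell type could not be checked against marker genes here.

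Meiotic entry is set off by retinoic acid, which induces Stra8 and Bhmg1. Their products, STRA8 and the bHLH and HMG-box protein MEIOSIN, act together on the promoters of early meiotic genes. On the RNA side, the helicase YTHDC2, its partner MEIOC and the RNA-binding protein RBM46 act together to end the mitotic programme, while DAZL, another RNA-binding protein, makes germ cells competent to respond and promotes translation of its target transcripts. These steps come before the pachytene and diplotene stages from which the chromatin was taken.

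The promoters of 4 of the genes are shown because the peaks lay at or near annotated starts, and because Stra8, which had no peak, differs from the others in base composition. Each line gives the 250 bases before the start in the RefSeq promoter table (GRCm38.p6, the assembly of mm10), 5′ to 3′ on the strand of the gene. Capitals mark matches, on either strand, to GGGCGG (GC box), CACGTG (E-box), AGGTCA (core of the retinoic acid receptor site), TGACGT (core of the cAMP response element) and TCCCGC (core of the E2F site).
Bhmg1, chr7:19118345-19118594, minus strand: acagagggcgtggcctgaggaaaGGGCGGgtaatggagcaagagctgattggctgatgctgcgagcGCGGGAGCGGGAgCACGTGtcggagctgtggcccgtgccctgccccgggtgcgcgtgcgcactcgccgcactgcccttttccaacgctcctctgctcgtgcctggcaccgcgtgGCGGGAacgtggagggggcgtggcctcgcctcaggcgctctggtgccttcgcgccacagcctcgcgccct
Dazl, chr17:50293621-50293870, minus strand: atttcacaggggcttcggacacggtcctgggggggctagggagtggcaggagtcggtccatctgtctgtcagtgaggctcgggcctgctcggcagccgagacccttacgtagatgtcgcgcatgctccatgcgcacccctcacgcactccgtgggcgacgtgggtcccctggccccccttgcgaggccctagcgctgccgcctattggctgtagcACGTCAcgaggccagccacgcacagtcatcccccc
Rbm46, chr3:82876484-82876733, minus strand: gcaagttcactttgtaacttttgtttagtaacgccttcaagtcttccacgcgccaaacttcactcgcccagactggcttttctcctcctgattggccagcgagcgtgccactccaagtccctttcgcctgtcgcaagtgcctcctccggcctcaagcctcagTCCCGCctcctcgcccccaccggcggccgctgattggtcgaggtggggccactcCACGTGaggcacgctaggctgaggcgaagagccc
Stra8, chr6:34920698-34920947, plus strand: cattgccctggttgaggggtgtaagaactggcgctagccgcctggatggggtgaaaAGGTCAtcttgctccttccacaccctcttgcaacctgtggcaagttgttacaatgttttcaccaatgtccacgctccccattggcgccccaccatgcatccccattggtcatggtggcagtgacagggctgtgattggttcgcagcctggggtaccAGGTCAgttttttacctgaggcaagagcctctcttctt

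No peak was listed at any of the 6 genes in the KO library, where 0.340% of protein-coding genes had a peak within 10 kb. In WT replicate 1, 5 of the 6 genes had a peak, against 33.8% of protein-coding genes, and in WT replicate 2, 4 of 6 had one, against 39.4%. In either WT list together, 5 of 6 genes had one, against 42.3%. A shared region, meaning a peak of each WT replicate overlapping the other by at least 1 bp within the window, was found at 4 of 6 genes (Bhmg1, Dazl, Ythdc2 and Rbm46), against 29.3% of protein-coding genes. Of the 5 genes with an annotated start in the promoter table, 3 (Bhmg1, Dazl and Rbm46) had a shared region within 1 kb of it, against 20.8% of the 17492 protein-coding genes with such a start; Ythdc2 has no entry there. With 6 genes named with earlier results of these data known, these shares are a description and were not tested.

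**Figure D1:**
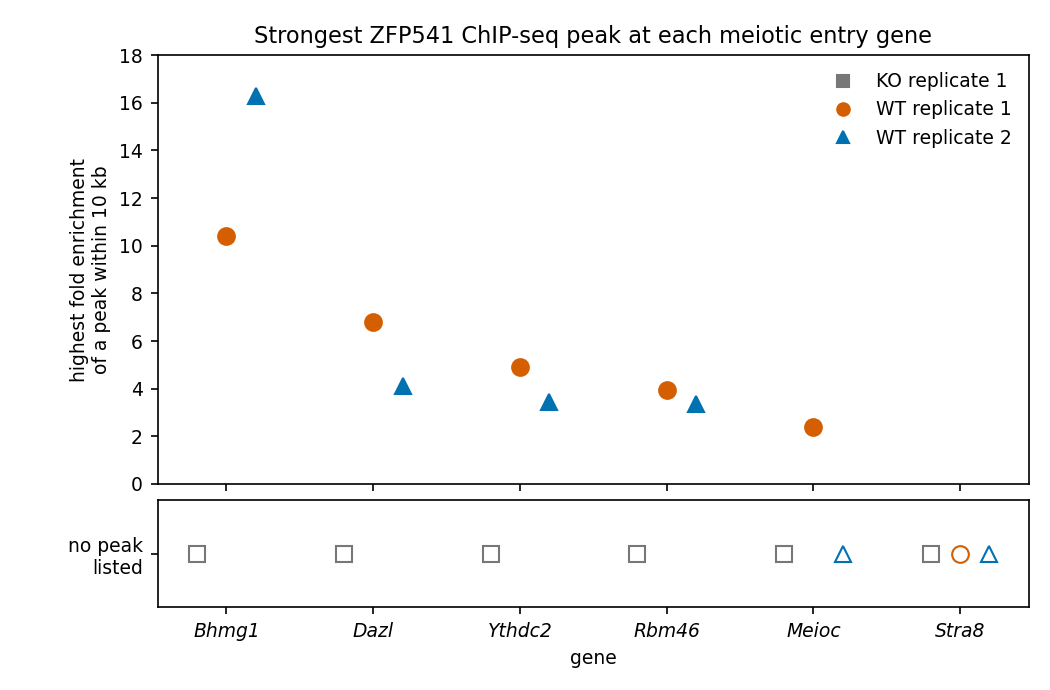
Highest fold enrichment of a listed peak within 10 kb of each gene, by library (squares, KO replicate 1; circles, WT replicate 1; triangles, WT replicate 2); open symbols in the lower panel stand for no listed peak. All 6 KO symbols are open, Bhmg1 has the highest WT values at 10.4 and 16.3, and Stra8 has no peak in any library.

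Bhmg1, which encodes MEIOSIN, carried the strongest peak of the group. None was listed in the KO library, against folds of 10.4 in WT replicate 1 and 16.3 in WT replicate 2 at the start of the gene. In replicate 1 this peak spanned chr7:19117097-19118592 (1496 bp), with a −log10 p of 41.4, a −log10 q of 36.6 and its summit 1190 bp from the peak's lower end. In replicate 2 it spanned chr7:19117419-19118802 (1384 bp), with a −log10 p of 64.4, a −log10 q of 59.4 and a summit offset of 993 bp. The replicate peaks overlapped by 1174 bp, and their summits, 57 bp after and 68 bp before the annotated start, were 125 bp apart. By fold, these peaks ranked 561 of 8236 and 123 of 10371 in their lists. Peaks covered 248 and 250 of the 250 promoter bases printed above.

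Replicate 2 listed 2 further peaks around that start with no counterpart in replicate 1. One lay inside Bhmg1 at chr7:19116664-19117021 (358 bp; fold 4.36, −log10 p 6.73, −log10 q 3.62, summit offset 151 bp). The other was upstream at chr7:19119297-19120089 (793 bp; fold 2.65, −log10 p 3.21, −log10 q 0.516, summit offset 771 bp), and it spanned an end of the neighbouring gene Fbxo46. The window also took in a peak beyond the far end of Bhmg1, inside the homeobox gene Six5, that both WT replicates listed. It spanned chr7:19094716-19095311 in replicate 1 (596 bp; fold 6.48, −log10 p 13.3, −log10 q 9.61, summit offset 415 bp) and chr7:19094286-19096338 in replicate 2 (2053 bp; fold 7.05, −log10 p 14.3, −log10 q 10.7, summit offset 768 bp). This peak was 23.2 and 23.3 kb from the Bhmg1 start and within 1 kb of Dmpk as well, so it may belong to Six5 or Dmpk and is not counted in the values for the Bhmg1 start.

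Dazl, whose product binds the transcripts of many germ cell genes, had a peak just inside its start in both WT lists and none in the KO list. WT replicate 1 gave a fold of 6.79 at chr17:50292586-50293616 (1031 bp), with a −log10 p of 13.0, a −log10 q of 9.32 and a summit offset of 539 bp. For WT replicate 2 the fold was 4.12 at chr17:50292869-50293833 (965 bp), with a −log10 p of 7.13, a −log10 q of 4.00 and a summit offset of 63 bp. Both summits lay downstream of the annotated start, by 495 and 688 bp, and the peaks overlapped by 748 bp. The replicate 1 peak ended 4 bp inside the gene and covered 0 of the 250 promoter bases, whereas the replicate 2 peak covered 213 of them. Replicate 2 alone listed a weak second peak 8.37 kb upstream, at chr17:50301981-50302193 (213 bp; fold 3.02, −log10 p 3.66, −log10 q 0.858, summit offset 7 bp).

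Among the partners that act on RNA, Ythdc2 and Rbm46 had peaks in both WT replicates and Meioc in 1. Ythdc2 encodes an RNA helicase that binds methylated RNA, and it had no KO peak, against highest folds of 4.90 and 3.44 in WT replicates 1 and 2. The replicate 1 peak spanned chr18:44827918-44828413 (496 bp; −log10 p 7.93, −log10 q 4.62, summit offset 97 bp). The replicate 2 peak spanned chr18:44828258-44829334 (1077 bp; −log10 p 5.14, −log10 q 2.16, summit offset 283 bp). They overlapped by 156 bp, with summits 285 and 811 bp inside the lower-coordinate end of the gene and 526 bp apart. A second replicate 1 peak at chr18:44828791-44829023 (233 bp; fold 2.44, −log10 p 2.73, −log10 q 0.0696, summit offset 186 bp) lay wholly inside the replicate 2 peak, its summit 436 bp from that peak's. Ythdc2 had no entry in the promoter table, so distances for it were counted from the gene end.

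Rbm46 showed the weakest shared region. No KO peak was listed, against a fold of 3.93 in WT replicate 1 at chr3:82876129-82876847 (719 bp; −log10 p 5.51, −log10 q 2.38, summit offset 608 bp). Its summit was 254 bp before the annotated start, and the peak covered all 250 promoter bases and reached an end of the antisense gene Rbm46os. The replicate 2 peak that overlapped it, by 363 bp, was at chr3:82875993-82876491 (499 bp), with a fold of 2.55, a −log10 p of 3.33, a −log10 q of 0.629 and a summit offset of 448 bp. That corresponds to a q-value of 0.235, so the overlap rests on a peak above a q-value of 0.05. The highest replicate 2 fold at Rbm46, 3.36, belonged to a peak further inside the gene at chr3:82875370-82875629 (260 bp; −log10 p 4.37, −log10 q 1.48, summit offset 118 bp), which met no replicate 1 peak. Its summit was 995 bp after the start.

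Meioc, which encodes the partner of YTHDC2, had a peak in WT replicate 1 alone. There was none in the KO list, and the fold was 2.40 in WT replicate 1 at chr11:102665435-102665761 (327 bp; −log10 p 2.91, −log10 q 0.241, summit offset 147 bp), with no listed peak in WT replicate 2. The summit was 3 bp before the annotated start. Its q-value was 0.574 and its fold ranked 8082 of 8236, close to the bottom of the list. The nearest replicate 2 peak was 79.1 kb from the gene.

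Stra8, whose product is required for entry into meiosis in mice, had no peak in any list. The nearest KO peak was 5172 kb from the gene body, against 42.0 and 41.6 kb for the nearest peaks of WT replicates 1 and 2. Those WT peaks overlapped each other on the far side of Wdr91, with folds of 3.57 and 4.36. With 256 peaks in the KO list, against 8236 and 10371 in the WT lists, the KO and WT distances are not directly comparable. Since the lists do not tell how deeply each library was sequenced, a site without a peak is not shown to be unbound.

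**Figure D2:**
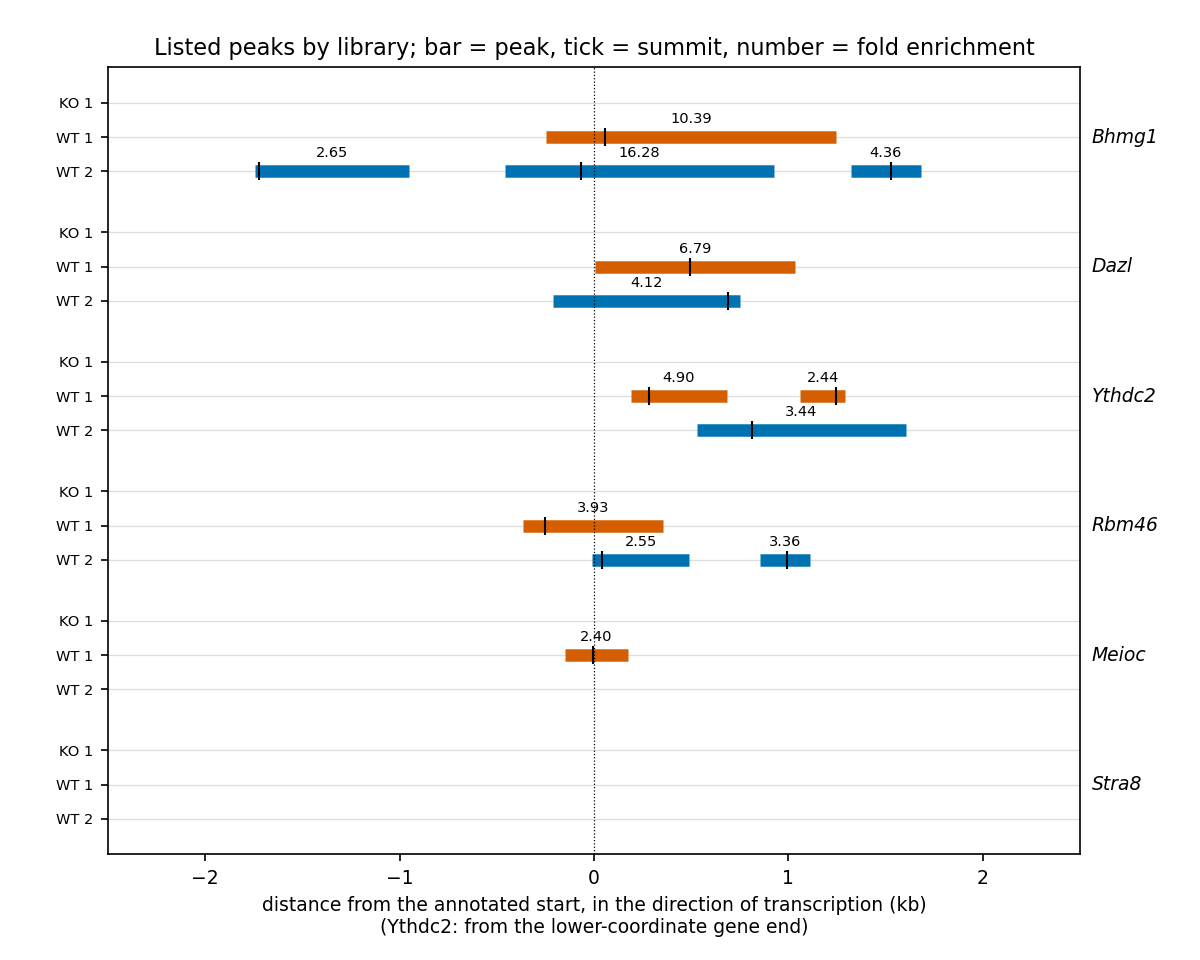
Listed peaks by distance in kb from the annotated start (for Ythdc2, from the lower-coordinate gene end), by gene and library; bars are peaks, black ticks summits and numbers folds. The KO rows are empty, and the WT peaks of Bhmg1, Dazl, Rbm46 and Meioc lie around the start; the peaks in Six5 and the Dazl peak 8.37 kb upstream fall outside the plot.

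Within the windows searched, most peaks lay near the starts of the genes. Of the 16 WT peaks in all, 12 overlapped a gene body of the group and 10 had a summit within 1 kb of the annotated start (the gene end for Ythdc2). The 4 that overlapped no gene body of the group were the pair in Six5, the peak at Fbxo46 and the Dazl peak 8.37 kb upstream. Across the lists, 11 of the 16 overlapped a peak of the other WT replicate and 5 did not. The same shares over all peaks of the lists are not given here, so these counts describe the 16 peaks alone.

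Among the 4 genes with a shared region, Bhmg1 had the highest folds in both replicates. Its mean over the WT replicates was 13.3 ± 4.17 (SD, n = 2), and its lower value, 10.4, was above every value of the other genes. Dazl followed at 5.45 ± 1.89, then Ythdc2 at 4.17 ± 1.03 and Rbm46 at 3.64 ± 0.404 (SD, n = 2 each). The ranges of Dazl and Ythdc2 overlapped, as did those of Ythdc2 and Rbm46, while both Dazl values were above both Rbm46 values. Within each library the order of Dazl, Ythdc2 and Rbm46 was the same. Their folds were 6.79, 4.90 and 3.93 in replicate 1 and 4.12, 3.44 and 3.36 in replicate 2. These differences were not tested, and 2 replicates cannot settle whether neighbours in the order differ. Replicate 2 had 1.57 times the fold of replicate 1 at Bhmg1, while replicate 1 had 1.65, 1.42 and 1.17 times the fold of replicate 2 at Dazl, Ythdc2 and Rbm46. The highest folds of Rbm46 came from peaks at different sites: at its shared region the folds were 3.93 and 2.55, a mean of 3.24 ± 0.972 (SD, n = 2) and a ratio of 1.54. Fold percentiles within each list were 93.2 and 98.8 for Bhmg1, 78.8 and 55.2 for Dazl, 59.9 and 37.6 for Ythdc2, and 41.3 and 32.5 for Rbm46, in replicates 1 and 2.

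Set among the 6377 protein-coding genes with a shared region, Bhmg1 was near the top and Rbm46 near the bottom. The mean highest fold of Bhmg1 was above that of 95.4% of these genes. The same share was 39.3% for Dazl, 16.6% for Ythdc2 and 7.43% for Rbm46. The medians over these genes were 5.84 in replicate 1 and 6.38 in replicate 2, and 2 of 5 genes of the group with a peak exceeded the median in replicate 1 and 1 of 4 in replicate 2.

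**Figure D3:**
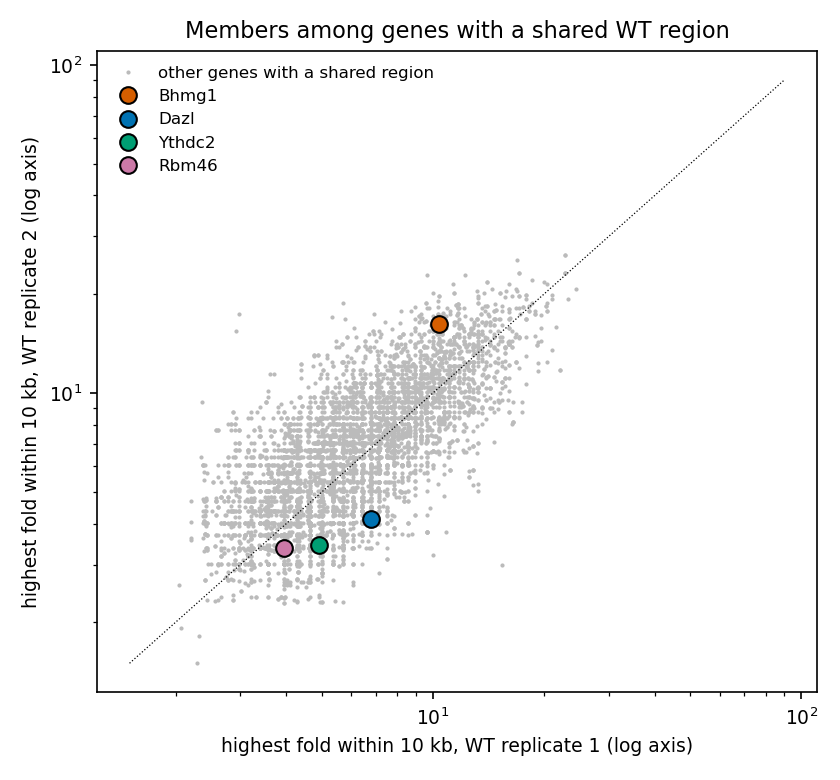
Highest fold within 10 kb in WT replicate 1 (x, log axis) against WT replicate 2 (y, log axis) for genes with a shared WT region; grey points are all such genes, coloured circles the 4 meiotic entry genes among them, and the dotted line marks equal folds. Bhmg1 lies above the line among the stronger genes, while Dazl, Ythdc2 and Rbm46 lie below it.

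Under stricter thresholds, fewer of the genes kept a shared region. Of the 16 WT peaks, 11 had a q-value of at most 0.05. Above that limit were 2 of 7 peaks in replicate 1, against 19.2% of all peaks in that list. In replicate 2 it was 3 of 9, against 22.6%. With that limit, the shared region was kept at 3 of 6 genes (Bhmg1, Dazl and Ythdc2), against 26.5% of protein-coding genes. The same 3 kept it when −log10 q had to reach 2, against 24.8%. With a limit of 5 it was kept at 1 of 6, Bhmg1, against 17.2%, and with 10 again at Bhmg1, against 9.98%. Dazl left at 5 because its replicate 2 peak had a −log10 q of 4.00. When shared regions needed summits within 200 bp of each other, 2 of 6 genes had one (Bhmg1 and Dazl), against 23.7%.

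**Figure D4:**
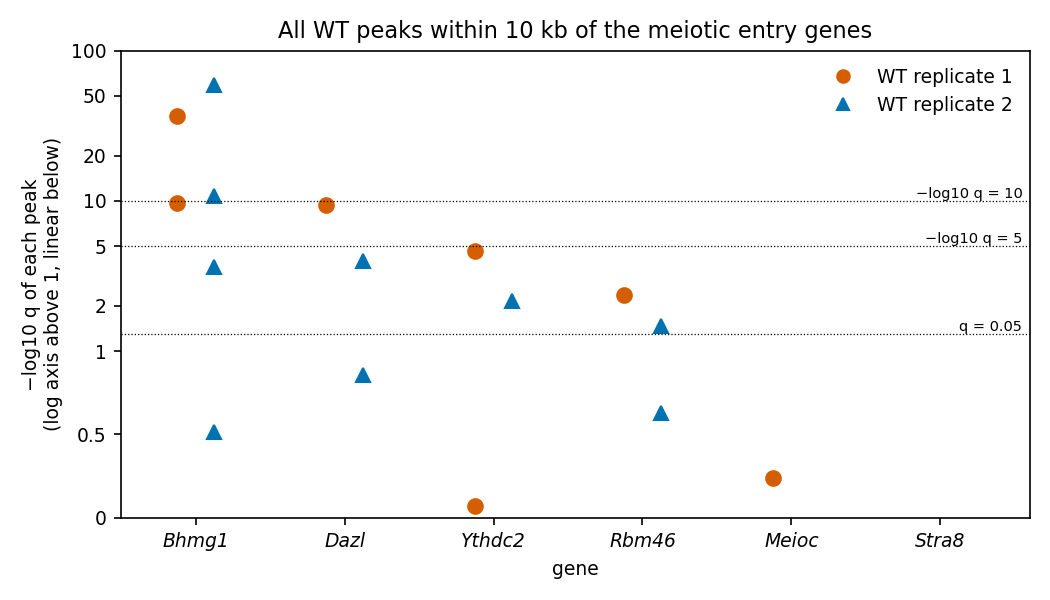
The −log10 q of each WT peak within 10 kb of the 6 genes, by replicate (circles, replicate 1; triangles, replicate 2); the axis is logarithmic above 1 and linear below, and dotted lines mark a q-value of 0.05 and −log10 q of 5 and 10. Bhmg1 has peaks of both replicates above the highest line, and the single Meioc peak lies at 0.241.

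The KO comparison asks which peaks need ZFP541, and it could only be described, since there was 1 KO library. The KO list began at a −log10 p of 4.47, against 2.71 and 2.54 in WT replicates 1 and 2. Counting only peaks with at least that KO minimum, 0 of 6 genes had a KO peak, against 4 in WT replicate 1 and 3 in WT replicate 2, where 30.1% and 32.5% of protein-coding genes had a peak at that limit. Of the 16 WT peaks, 10 reached it, and the share of all peaks that did is not given here. The shared region stayed at Bhmg1, Dazl and Ythdc2, against 25.9% of protein-coding genes. The nearest KO peak was 1852 kb from Ythdc2, 3674 kb from Bhmg1, 6329 kb from Meioc, 10431 kb from Dazl and 16379 kb from Rbm46. The KO list holds only 256 peaks, against 8236 and 10371 in the WT lists. Such distances over all genes are not given here, so these say nothing particular to the 6 genes. The lists hold no read counts, so a genotype difference in depth and one in binding cannot be told apart from them.

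Promoters of 4 of the 5 genes with a peak held more CG dinucleotides than the median promoter, and that of Stra8 held fewer; the promoter of Ythdc2 was not analysed here. In the 250 bases before the start, Bhmg1 had 28 CG dinucleotides, Meioc 22, Dazl 20, Rbm46 18 and Stra8 5, against a median of 10 over 21263 promoters of protein-coding genes. The median was 23 for promoters with a shared region within 1 kb of the start and 6 for those without. Bhmg1 was above the first of these, and Meioc, Dazl and Rbm46 lay between them. Meioc, whose only peak had a q-value of 0.574, had no shared region, although it held more CG dinucleotides than Dazl and Rbm46, which had one. The share of promoters with a shared region within 1 kb of the start was 20.9% in all and climbed with CG content, as plotted by CG content. Among promoters within 2 CG dinucleotides of Bhmg1 it was 53.7%, for Meioc 38.5%, for Dazl 33.2%, for Rbm46 29.4% and for Stra8 5.25%. Each gene can thus be read against promoters of like CG content; the part of CG content in the peaks was not tested.

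**Figure D5:**
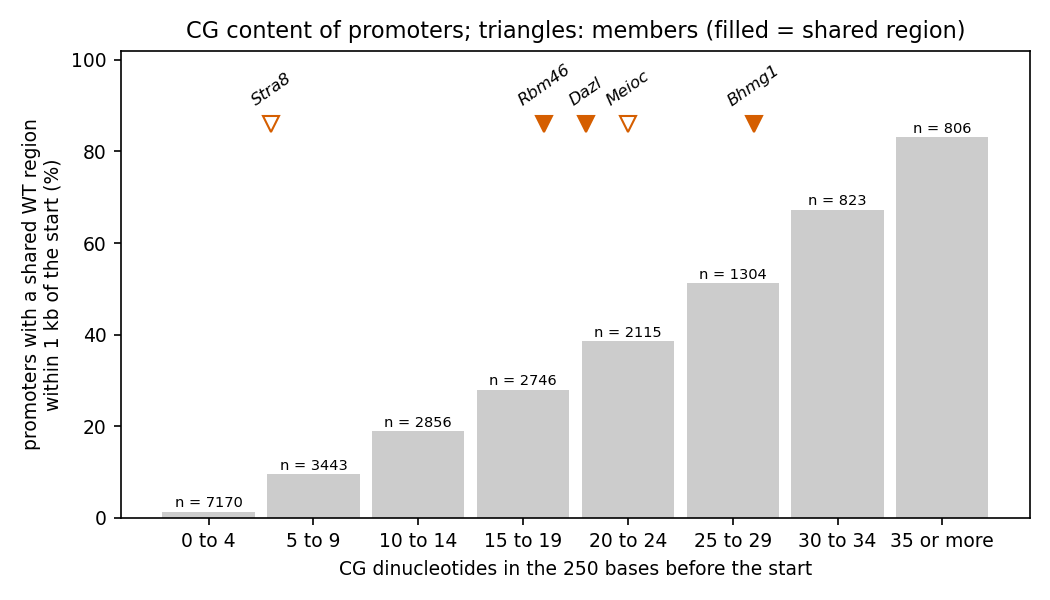
Share of protein-coding promoters (in %) with a shared WT region within 1 kb of the start, by the number of CG dinucleotides in the 250 bases before it; n is the number of promoters in each bar, and triangles place the 5 genes with a promoter entry (filled, shared region; open, none). The share was 1.35% in the lowest bin and 83.1% in the highest, and Stra8 lies in the second bin.

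Short motifs in these windows varied from gene to gene. CACGTG, the E-box that bHLH proteins bind, was in the promoters of Bhmg1 and Rbm46, 171 and 34 bases before the start, and in 6.63% of all promoters; CACGTG also matches CANNTG, which was in 62.8%. TCCCGC was in Bhmg1 at 3 places, in Rbm46 and Meioc at 1 each, and in 21.8% of promoters. GGGCGG, which can overlap TCCCGC on the opposite strand, was in Bhmg1 and Meioc and in 42.6%. Dazl held TGACGT 35 bases before its start (7.37% of promoters). AGGTCA occurred 194 and 38 bases before the start of Stra8 and in none of the other 4 promoters of the group, against 12.8% of promoters. Both strands were searched, and a match is only a run of letters.

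Other genes of meiotic entry were counted from 5 lists by role, drawn up with earlier results of these data known. In all, 28 of 45 had a shared WT region within 10 kb, against 29.3% of protein-coding genes. None had a KO peak there, and only 0.340% of protein-coding genes had one. Of the genes of the polycomb complex with MGA and L3MBTL2, which represses meiotic genes before entry, 6 were on the list, and each of these 6 had one. Mga, its scaffold, had folds of 10.1 and 10.7 in WT replicates 1 and 2. E2f6, a DNA-binding subunit, had 6.79 and 6.04, and Cbx3 had 5.36 and 8.39. The Cbx3 peak of replicate 1 was within 1 kb of Hnrnpa2b1. At L3mbtl2, the strongest peaks of both WT replicates lay outside the gene. The replicate 1 peak was within 1 kb of Chadl and may belong to that gene.

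Among upstream signals 7 of 10 had a shared region, led by nuclear receptors. The retinoid X receptor genes Rxra and Rxrb had highest folds of 9.48 and 12.7, and of 6.50 and 10.7. Rara, a retinoic acid receptor gene, had 7.14 and 8.73 at peaks outside its body, the replicate 1 peak within 1 kb of Gjd3. The strongest Rxrb peak of replicate 1 was within 1 kb of Slc39a7. Nanos2 and Zglp1, counted among the 7, had their strongest peaks outside the gene in both WT replicates. In replicate 1 these peaks were within 1 kb of Mypop, and of Fdx2, Gm38431 and Raver1, so they may belong to those genes. Dmrt1, Sohlh1 and Sohlh2, transcription factor genes of spermatogonia, had no peak in any list.

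Genes whose products bind or methylate RNA counted 6 of 9, with none at Xrn1, Mettl3 or Mettl14. Wtap, a subunit of the RNA methyltransferase, had folds of 12.9 and 9.61 in WT replicates 1 and 2. Dazap1, which encodes a DAZ-associated protein, had 9.64 and 8.73, and its replicate 1 peak was within 1 kb of Gamt. Boll, a DAZ family gene, had 4.33 and 6.91.

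Early prophase genes on which STRA8 and MEIOSIN act had a shared region in 7 of 15 cases, and 4 (Rec8, Sycp3, Hormad1 and Hormad2) had no peak in any list. Sycp1, a synaptonemal complex gene, was the strongest at 22.1 and 11.8. Stag3, a cohesin gene, had 9.04 and 9.54, its strongest replicate 1 peak within 1 kb of Gpc2. Rec114, which takes part in break formation, had 7.71 and 9.73, its replicate 1 peak lying outside the gene near Hcn4. Spo11 and Sycp2, counted among the 7, had their strongest peaks outside the gene in both WT replicates. In replicate 1 these peaks were within 1 kb of Rae1, and of Fam217b and Ppp1r3d. Of 5 mitotic cell cycle genes, 2 had a shared region, the cyclin genes Ccne2, with 19.1 and 14.0, and Ccna2, with 15.4 and 10.8. Their replicate 1 peaks were within 1 kb of A630034I12Rik and of Bbs7. Ccnb1 and Cdk1, which encode the cyclin and kinase that drive division, had no peak in any list.

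Genes most like Bhmg1, Dazl and Ythdc2 were sought among those with a shared region, no KO peak and the same number of peaks in each WT list, by the distance in log2 highest fold over the 2 WT libraries. Lrrc47 was closest to Bhmg1, at a distance of 0.11 among 103 candidates, with folds of 10.6 and 15.1. Lyst was closest to Dazl, at 0.026 among 965, and Parp16 to Ythdc2, at 0.078 among 675. A likeness over 2 libraries is a description only.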

How the data were processed

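ZFP541 ChIP-seq peak lists of 1 KO and 2 WT libraries were used, 1 list per library. Per the submitters' processing notes, the tools were MACS2 2.2.6, Bowtie2 2.3.5, cutadapt 2.6, deepTools 3.5.0, Picard and SAMtools 1.10, with the mm10 build; parameters, controls and thresholds of the peak calls are not given in the sources used. Each peak in the deposited lists has a fold (the ratio of signal to the background the caller estimated), a −log10 p, a −log10 q, a score (10 times the −log10 q without decimals) and the offset of the summit from the peak's lower end, all the authors' own values. In the deposited lists, 29 KO peaks, 1580 peaks of WT replicate 1 and 2349 of WT replicate 2 have a q-value above 0.05. Read depth is unknown.

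Gene positions were those of RefSeq's GRCm38.p6 table, without 108 protein-coding entries placed before 3 Mb of autosomes or X; starts and sequences came from a RefSeq promoter table, which held 5 of the 6 genes. Peaks within 10 kb of a gene body were taken, and overlap of at least 1 bp counted as shared. The members and lists were chosen with earlier results of these data known, so no test was run: counts stand beside the share of all protein-coding genes. For the lists by role, up to 3 genes each, those of best mean fold percentile over the WT replicates, were named. Genes without a peak, and genes whose strongest peaks lay outside the gene in both WT replicates, were named after their values were seen. Of the genes nearest to a member in highest fold, 1 is left out here. Alternatives covered windows, q-values, overlap and single replicates. Python 3.11.15, numpy 2.4.6, pandas 2.3.3 and matplotlib 3.10.9 were used; overlap calls were tested on simulated data against a direct search.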

Additional observations from a re-analysis of the deposited data

How the results depend on the processing

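The number of genes with a peak in either WT list was 5 of 6, against 42.3% of protein-coding genes. It was 4 with a −log10 q limit of 2 and at a q-value of at most 0.05, and fell to 2 and 1 with limits of 5 and 10. The shares of protein-coding genes at these limits are not given here. With replicate 1 alone it was 5, against 33.8%, and with replicate 2 alone 4, against 39.4%. The number with a shared WT region, 4, fell to 1 with limits of 5 and of 10, and to 2 with summits within 200 bp. It was 3 with a limit of 2 (Bhmg1, Dazl and Ythdc2). Under a reciprocal overlap of 50%, which 21.9% of protein-coding genes met, it was 3 with other genes (Bhmg1, Dazl and Rbm46). It was also 3 at a q-value of at most 0.05 or the KO minimum, both chosen after seeing the data. A shared region cannot be counted in a single replicate. Windows of the gene body alone or with 1, 5 or 20 kb left both counts of the 6 genes as they were, and the count of 0 KO peaks held out to 100 kb. The share of protein-coding genes with a KO peak was 0.340% within 10 kb and is not given here for the other windows. The 28 of 45 genes of the role lists fell to 17 and 11 with −log10 q limits of 5 and 10, against 17.2% and 9.98% of protein-coding genes. Genes of these lists with a peak in replicate 1, shared or not, were 32, against 33.8% of protein-coding genes. For replicate 2 the count was 30, against 39.4%. Genes with a shared region were 21 with the gene body alone, against 22.3%. They were 22 with 1 kb around it and 30 with 20 kb, where the shares are not given here. The mean highest folds did not move with the windows tried; with a single replicate they were 10.4 to 16.3 for Bhmg1, 4.12 to 6.79 for Dazl, 3.44 to 4.90 for Ythdc2 and 3.36 to 3.93 for Rbm46, and for Meioc peaks of replicate 2 alone gave no value. The order of these 4 genes by percentile rank was that by fold. No paired analysis was possible because the KO and WT libraries share 1 replicate number and no result comes from a test. Unknown depth limits every statement on a missing peak.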

Other observations

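Fold values repeat within a list, which limits how finely the weaker genes can be ordered. The fold of 3.93 at Rbm46 was that of 535 peaks in WT replicate 1, and its 3.36 that of 944 peaks in WT replicate 2. Mei1, a gene of meiotic break formation singled out after its values were seen, also had highest folds of 3.93 and 3.36, at peaks of the 2 replicates that did not overlap, so it had no shared region. The Dazl fold of 6.79 was that of 113 peaks in replicate 1, whereas the Bhmg1 folds of 10.4 and 16.3 each belonged to 1 peak.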
